A study of Homo sapiens with 13 samples.

Results

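Expression of 5 genes of chromosome band 9p21, KLHL9, MTAP, CDKN2A, CDKN2B and DMRTA1, was examined in 13 untreated acute lymphoblastic leukemia (ALL) cell lines, 7 of T-cell ALL (T-ALL) and 6 of B-cell precursor ALL (BCP-ALL). T-ALL was represented by Jurkat, Molt4, CCRF-CEM, ALL-SIL, HPB-ALL, TALL-1 and P12-ICHIKAWA, and BCP-ALL by REH, 697, RS4,11 and the lines Nalm6, Nalm16 and Nalm30. Every probe set annotated to one of the 5 symbols alone was taken, which gave 16 probe sets of the 38125 that carry a single symbol, and 5 genes of 18568. None of the lines received a drug, and the labels state culture for 30 h in RPMI-1640 with fetal bovine serum. Each line was hybridized to 1 Affymetrix HG-U133 Plus 2.0 array, so a line is 1 replicate of its lineage and its own spread between cultures was not measured. The study asked how ALL cells resist the antifolate methotrexate, and this panel was its untreated baseline.

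CDKN2A and CDKN2B lie next to each other on the short arm of chromosome 9 and encode inhibitors of the cell cycle. CDKN2A gives p16, which blocks the D-cyclin kinases CDK4 and CDK6, and from a separate first exon it gives ARF, which binds MDM2 and so protects p53. CDKN2B gives p15, a second inhibitor of CDK4 and CDK6. MTAP, their neighbor, encodes methylthioadenosine phosphorylase, which cleaves the by-product of polyamine synthesis and feeds methionine salvage and adenine back into nucleotide pools. KLHL9 lies on the other side of MTAP among the type I interferon genes and encodes a substrate adaptor of the CUL3 ubiquitin ligase that acts on Aurora B. DMRTA1, beyond CDKN2B, encodes a transcription factor with a DM domain. Loss of this region is one of the common lesions of ALL and is frequent in T-ALL. DNA copy number was not measured here, so loss of a gene and lack of its transcription cannot be told apart.

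The upstream sequences of the genes that carried signal in some lines and not in others are shown first, as context for the probe sets. RefSeq (GRCh38.p14) held start sites for 5 of the 5 genes, 6 sites in all, and the 250 bases before 4 of them are printed with each GC box (GGGCGG or its complement CCGCCC) in capitals, 5′ to 3′ on the strand of the gene. They are KLHL9 at chr9:21335405-21335654 (minus strand), MTAP at chr9:21802386-21802635 (plus strand), the ARF start of CDKN2A at chr9:21995325-21995574 and its p16 start at chr9:21974858-21975107 (both minus strand).
KLHL9: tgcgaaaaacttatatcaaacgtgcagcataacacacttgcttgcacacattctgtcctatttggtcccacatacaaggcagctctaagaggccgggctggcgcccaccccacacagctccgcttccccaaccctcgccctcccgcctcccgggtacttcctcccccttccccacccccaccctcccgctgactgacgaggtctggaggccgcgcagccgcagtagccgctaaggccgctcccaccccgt
MTAP: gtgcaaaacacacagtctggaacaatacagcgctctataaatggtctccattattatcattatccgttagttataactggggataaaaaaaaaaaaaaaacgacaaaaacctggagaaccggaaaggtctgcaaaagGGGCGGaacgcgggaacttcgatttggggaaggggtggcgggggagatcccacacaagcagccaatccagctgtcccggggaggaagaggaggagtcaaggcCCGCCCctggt
CDKN2A, ARF start: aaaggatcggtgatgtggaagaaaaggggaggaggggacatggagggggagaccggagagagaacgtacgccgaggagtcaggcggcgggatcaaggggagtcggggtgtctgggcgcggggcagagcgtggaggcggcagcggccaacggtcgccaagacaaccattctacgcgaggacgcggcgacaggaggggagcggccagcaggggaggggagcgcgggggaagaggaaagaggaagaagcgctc
CDKN2A, p16 start: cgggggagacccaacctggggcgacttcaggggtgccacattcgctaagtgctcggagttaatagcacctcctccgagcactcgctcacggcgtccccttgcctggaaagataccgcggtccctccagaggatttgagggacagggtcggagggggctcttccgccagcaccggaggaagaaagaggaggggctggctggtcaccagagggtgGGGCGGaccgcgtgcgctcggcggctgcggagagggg
A GC box was found in 42.6% of the 35116 RefSeq promoter windows of the same 250 bases. MTAP held 2 and the p16 start held 1, whereas none was found at KLHL9 or at the ARF start. The windows of CDKN2B and DMRTA1, whose probe sets gave no clear signal in any line, held 2 and 3. CpG dinucleotides, where DNA methylation can occur, numbered 24 at the ARF start, 20 at the p16 start, 18 at CDKN2B, 16 at KLHL9, 13 at DMRTA1 and 11 at MTAP, against a median of 11 over all windows. DNA methylation was not measured.

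Values are deposited log2 signals with 16 added before the logarithm, so that 4 is the lowest value a probe set can take. A value within 1 log2 unit of that floor, at most 5, is called near the floor, and differences between low values understate changes in RNA. Over all probe sets, 42.2% to 48.6% of the values of an array lay near the floor, and 24.6% of probe sets did so in every line. The array medians were 5.15 to 5.32 in T-ALL and 5.05 to 5.37 in BCP-ALL. P12-ICHIKAWA and TALL-1 correlated at 0.993 over the probe sets, while the next highest pair reached 0.959, so results were also computed with both as 1 line. Nalm16 and Nalm30 formed that next pair and correlated with the other lines at 0.770 to 0.879. Their arrays had the lowest medians (5.05 and 5.09) and the most values near the floor (48.6% and 47.6%). ALL-SIL came next, with a median of 5.15 and 46.7%. Whether low readings of single genes in this pair follow from this was not tested. The lowest correlation among the other 11 lines was 0.870. The means over lineage markers followed the labels, though single markers varied. VPREB1 of the B-lineage list was 4.15 in REH, and CD2 of the T-lineage list was 4.57 in CCRF-CEM and 4.51 in Molt4. The mean over 8 T-lineage markers per line was 8.92 to 10.3 in T-ALL lines and 4.75 to 5.41 in BCP-ALL lines, and over 8 B-lineage markers it was 4.65 to 5.98 in T-ALL lines and 10.1 to 10.7 in BCP-ALL lines.

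The lines differed widely in how many of the 16 probe sets gave signal. All 16 probe sets lay near the floor in Jurkat and Nalm6, and 15 of 16 did so in REH and RS4,11. The exception was MTAP 211364_at, at 5.01 in REH and 5.08 in RS4,11, against 4.97 in Jurkat and 4.89 in Nalm6. At the other end, 7 of 16 were near the floor in HPB-ALL and in 697. Between them stood Molt4 with 9, ALL-SIL with 10, P12-ICHIKAWA and TALL-1 with 12 each, and CCRF-CEM, Nalm16 and Nalm30 with 13 each. Taking the most variable probe set of each gene, KLHL9, MTAP and CDKN2A were all above the limit in HPB-ALL and 697 only, and none of the 5 genes was in Jurkat, Nalm6, REH and RS4,11. The values of all 16 probe sets in each line are drawn in the heat map of the 5 genes.

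**Figure D1:**
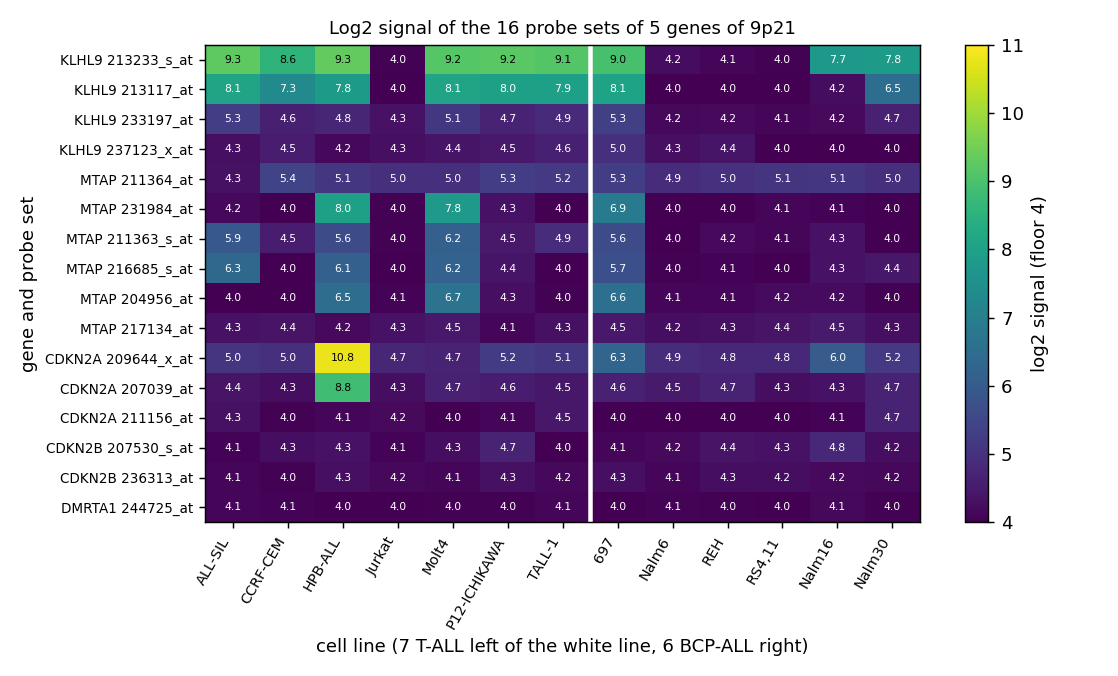
Log2 signal (color, with the value printed) of the 16 probe sets of KLHL9, MTAP, CDKN2A, CDKN2B and DMRTA1 (rows) in the 7 T-ALL lines, left of the white line, and the 6 BCP-ALL lines, right of it. Jurkat and Nalm6 are near the floor of 4 in every row, and REH and RS4,11 in every row but MTAP 211364_at (5.01 and 5.08). The highest value is CDKN2A 209644_x_at in HPB-ALL, at 10.80.

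KLHL9 was above the limit in 9 of 13 lines. Its probe set 213233_s_at had a lowest value of 4.04, a median of 9.15 and a highest value of 9.31 in T-ALL, against 4.05, 5.99 and 8.97 in BCP-ALL. In T-ALL the low value belonged to Jurkat alone, and the other 6 lines lay between 8.55 (CCRF-CEM) and 9.31 (HPB-ALL). In BCP-ALL, REH (4.09), RS4,11 (4.05) and Nalm6 (4.24) were at the floor, Nalm16 (7.74) and Nalm30 (7.81) stood in the middle, and 697 (8.97) was near the T-ALL values. The gap between low and high lines was therefore several log2 units wide with no line in it. A range across lines as large as that of this probe set, 5.28, was found in 2.17% of all probe sets.

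The mean was 8.38 ± 1.93 in T-ALL and 6.15 ± 2.26 in BCP-ALL (SD, n = 7 and 6), a difference of 2.23 (SE 1.08) on the log2 scale. This did not pass the limma test over all genes (adjusted p = 0.204) or over all probe sets (adjusted p = 0.293), and the groups overlapped. For context, 7.63% of the 12560 genes tested were called at an adjusted p of 0.05, and none of the 3 genes tested among the 5 (KLHL9, MTAP and CDKN2A) was called. The p-values measure the spread between lines of a lineage. CDKN2B and DMRTA1 did not pass the filter, which asked for a value above the array median in at least 3 lines. In the fit over all 38125 probe sets, which used no filter, 3.66% were called (1.88% higher and 1.79% lower in T-ALL) and none of the 16 was. In 2.35% of all probe sets the lineages did not overlap, and none of the 16 was among them.

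A second KLHL9 probe set, 213117_at, gave 4.01, 7.94 and 8.09 as the lowest, median and highest values in T-ALL, against 4.0, 4.12 and 8.07 in BCP-ALL. It ordered most lines as 213233_s_at did (r = 0.923 over 13 lines) but placed Nalm16 at 4.22, near the floor, while Nalm30 stayed at 6.54. So in Nalm16 the call of signal rested on the first probe set. The difference of the means was 2.18 (SE 0.829, adjusted p = 0.185 in limma over all probe sets), and an exact two-sided permutation test of this single probe set gave p = 0.0350, unadjusted for the 16 probe sets examined. The remaining pair of KLHL9 probe sets was low throughout. 233197_at ran from 4.09 to 5.32, with 10 lines near the floor and ALL-SIL, Molt4 and 697 above it, and 237123_x_at never exceeded 4.96. In Jurkat, Nalm6, REH and RS4,11 all 4 KLHL9 probe sets were near the floor.

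Which lines had MTAP signal depended on the probe set, and in 3 of 13 lines (Jurkat, Nalm6 and Nalm30) all 6 were near the floor. REH, RS4,11, Nalm16, CCRF-CEM, P12-ICHIKAWA and TALL-1 exceeded the limit in 211364_at alone, at 5.01 to 5.43. The most variable, 231984_at, was 7.99 in HPB-ALL, 7.78 in Molt4 and 6.90 in 697, and between 4.0 and 4.35 in the other 10 lines. The probe set 204956_at repeated this split, with 6.50 in HPB-ALL, 6.66 in Molt4 and 6.57 in 697, and 4.0 to 4.28 elsewhere (r = 0.985 between these probe sets over 13 lines). Both therefore marked the same 3 lines, of which HPB-ALL and Molt4 are T-ALL and 697 is BCP-ALL.

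In ALL-SIL the MTAP probe sets disagreed. 216685_s_at was 6.33 in ALL-SIL, next to 6.19 in Molt4, 6.14 in HPB-ALL and 5.71 in 697, and the other 9 lines lay at 4.0 to 4.44. 211363_s_at likewise gave 5.93 in ALL-SIL, 6.15 in Molt4, 5.64 in HPB-ALL and 5.62 in 697, with 4.0 to 4.90 in the other lines. Yet ALL-SIL was at 4.15 in 231984_at and at 4.0 in 204956_at. These probe sets thus recorded MTAP RNA in a T-ALL line where the first pair recorded none above the limit, and the sources used here do not give the part of the transcript that each one covers.

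**Figure D2:**
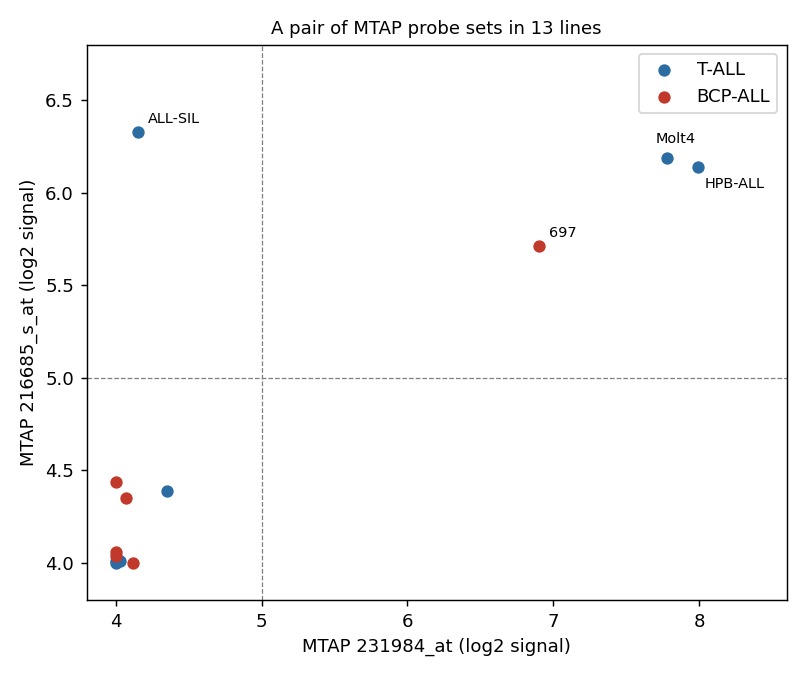
Log2 signal of MTAP probe set 231984_at (horizontal) and 216685_s_at (vertical) in 7 T-ALL (blue) and 6 BCP-ALL (red) lines, 1 point per line, with dashed lines at 5, the limit of the near-floor range. HPB-ALL, Molt4 and 697 are high in both, ALL-SIL is at 6.33 in one and 4.15 in the other, and the remaining 9 lines are near the floor in both.

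The last pair of MTAP probe sets told the lines apart poorly. 211364_at had the highest mean of the gene but ran only from 4.31 in ALL-SIL to 5.43 in CCRF-CEM, with 5 lines near the floor and the other 8 close above the limit, and 217134_at stayed between 4.13 and 4.51. As the highest mean was the rule for choosing 1 probe set per gene, the gene-level fit took 211364_at, with a difference of -0.02 (SE 0.173, adjusted p = 0.952 in limma). For 231984_at the means were 5.19 ± 1.85 in T-ALL and 4.51 ± 1.17 in BCP-ALL (SD, n = 7 and 6), a difference of 0.67 (SE 0.813, adjusted p = 0.706 over all probe sets). For 211363_s_at the difference was 0.72 (SE 0.382, adjusted p = 0.337), for 216685_s_at 0.58 (SE 0.493, adjusted p = 0.565) and for 204956_at 0.24 (SE 0.583, adjusted p = 0.870). None of these passed the test, and all of the distributions overlapped between lineages.

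CDKN2A stood high in a single line. Its probe set 209644_x_at was 10.80 in HPB-ALL, and the other T-ALL lines lay between 4.70 (Molt4) and 5.23 (P12-ICHIKAWA). In BCP-ALL it was 6.29 in 697, 6.02 in Nalm16 and 5.15 in Nalm30, with Nalm6, REH and RS4,11 at 4.78 to 4.89. The range of 6.11 was matched or exceeded by 1.01% of all probe sets, and 0.698% of all probe sets had 1 line at least 3 log2 units above every other. HPB-ALL was also the line with 8.84 in the CDKN2A probe set 207039_at, where the other 12 lines were all near the floor at 4.26 to 4.71. Hence the intermediate values of 697 and Nalm16 were seen in the first probe set only. Its name ends in _x_at, the manufacturer's mark for probes that may bind transcripts of other genes as well, and CDKN2A and CDKN2B are similar in sequence. The CDKN2B probe sets 207530_s_at and 236313_at read 4.12 and 4.29 in 697 and 4.77 and 4.17 in Nalm16, all near the floor. Binding of other transcripts was not tested.

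The third CDKN2A probe set, 211156_at, was near the floor in every line, at 4.0 to 4.71. None of the files state which of the p16 and ARF transcripts each probe set binds, so the signal in HPB-ALL cannot be assigned to either product. In 209644_x_at 6 lines were near the floor, 3 of each lineage, and the limit fell among close values, with CCRF-CEM at 4.95 just inside and ALL-SIL at 5.04 just outside. The mean was 5.79 ± 2.22 in T-ALL and 5.32 ± 0.662 in BCP-ALL (SD, n = 7 and 6), a difference of 0.47 (SE 0.875, adjusted p = 0.823 in limma over all probe sets and 0.768 over genes). Without HPB-ALL the difference was -0.36, so 1 line set its sign. The same was true of 207039_at, at 0.54 with all lines (adjusted p = 0.704) and -0.10 without HPB-ALL.

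CDKN2B and DMRTA1 showed no signal above the limit in any line. The CDKN2B probe sets ran from 4.0 to 4.77 (207530_s_at) and from 4.05 to 4.31 (236313_at), and the DMRTA1 probe set 244725_at from 4.0 to 4.14. HPB-ALL, the line with the high CDKN2A value, was no exception. In Molt4, where MTAP was high, CDKN2A read 4.70 in 209644_x_at and 4.65 in 207039_at. Thus Molt4 had MTAP above the limit with CDKN2A near the floor, while HPB-ALL had both above it.

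**Figure D3:**
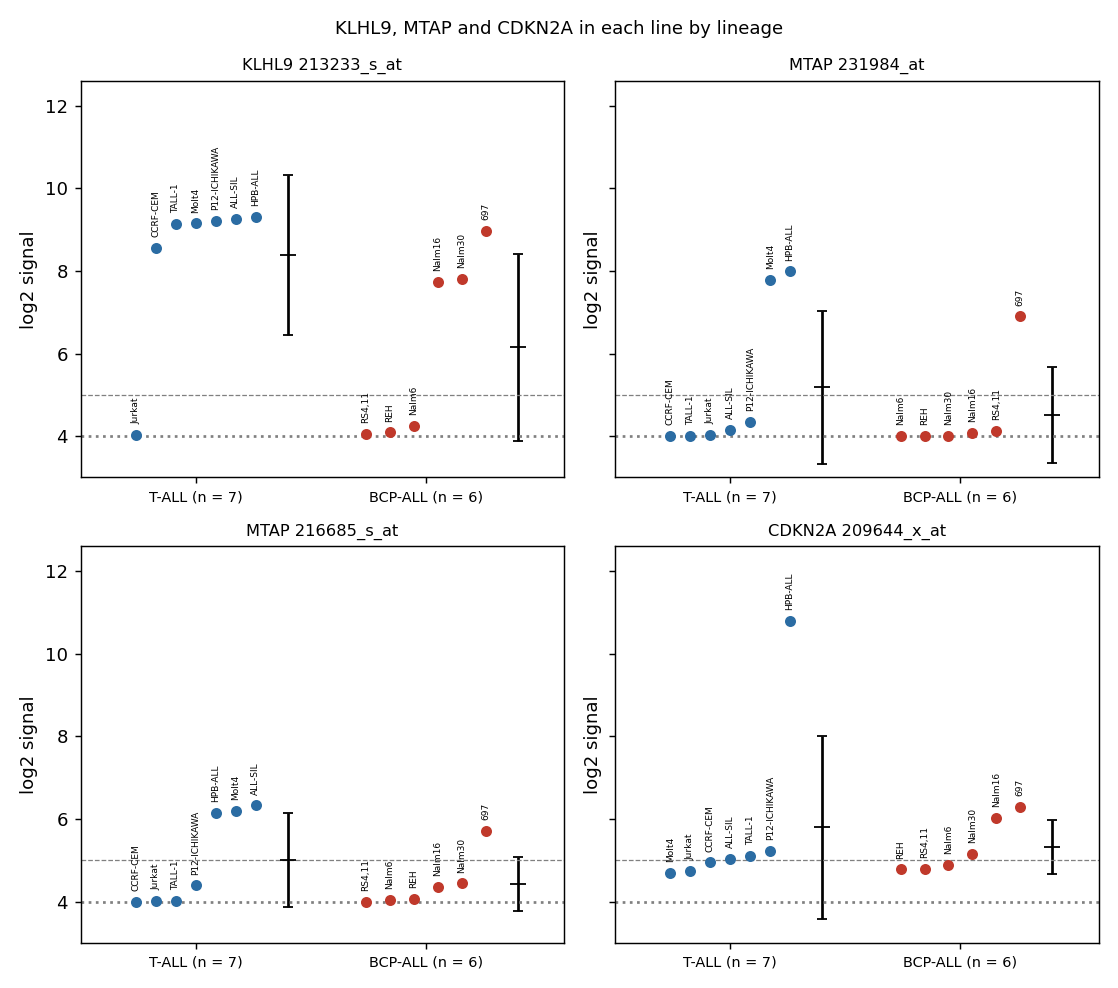
Log2 signal of KLHL9 213233_s_at, MTAP 231984_at, MTAP 216685_s_at and CDKN2A 209644_x_at in T-ALL (left, n = 7) and BCP-ALL (right, n = 6), 1 labeled point per line, with the mean and SD as a bar beside each group, the floor of 4 dotted and the limit of 5 dashed. KLHL9 is low in Jurkat alone among T-ALL lines and in 3 BCP-ALL lines, and CDKN2A is at 10.80 in HPB-ALL.

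The members were next set beside each other across lines, as a description, since most lines share the floor and the points share lineage and close pairs. With the most variable probe set of each gene, Pearson's r over 13 lines was 0.631 for MTAP with CDKN2A, 0.460 for MTAP with KLHL9 and 0.364 for CDKN2A with KLHL9. Spearman's rank coefficient was 0.319, 0.621 and 0.516 in the same order. With lineage means removed, r was 0.620, 0.412 and 0.338. Without HPB-ALL and Molt4, the lines farthest from the median of MTAP, r was 0.732 for MTAP with CDKN2A and 0.315 for MTAP with KLHL9. These coefficients rest on the few lines above the floor. By these probe sets, every line with MTAP above the limit (231984_at) also had KLHL9 above it (213233_s_at). Another 6 lines had KLHL9 above the limit without MTAP. That count depends on the probe set. It includes ALL-SIL, where MTAP read 6.33 in 216685_s_at and 5.93 in 211363_s_at, and Nalm16, where KLHL9 read 4.22 in 213117_at.

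The genes around the members on 9p were then read in chromosomal order, to see how far along the arm the low values of a line ran. Of 28 neighbors listed between MLLT3 and TEK, 24 were measured, by 32 probe sets, and 7 of these genes (IFNB1, IFNW1, IFNA5, IFNA2, IFNA8, CDKN2B-AS1 and TEK) were near the floor in every line and probe set. MLLT3, the outermost gene on the telomeric side of the list, encodes AF9, a subunit of transcription elongation complexes and a fusion partner in leukemia. Its probe set 204918_s_at gave 5.28, 6.10 and 6.85 as the lowest, median and highest values in T-ALL, against 4.0, 4.16 and 4.26 in BCP-ALL. The lineages did not overlap, as in 3.69% of genes tested. The difference was 1.98 (SE 0.204, adjusted p = 3.06e-05 in limma), and it was 2.11 and 0.64 in the other MLLT3 probe sets, 204917_s_at and 1569652_at (adjusted p = 0.000104 and 0.0346 over all probe sets). MLLT3 was the only neighbor of 14 tested that was called, and it was higher in T-ALL. Over all genes 3.96% were called higher in T-ALL, and the median difference of the 14 was -0.03 beside 0.03 over all genes.

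FOCAD, which encodes focadhesin, followed MLLT3 in the order. Its values had a lowest of 6.38, a median of 6.99 and a highest of 7.10 in T-ALL, against 4.04, 4.97 and 7.16 in BCP-ALL. Nalm6 (4.10), REH (4.04) and RS4,11 (4.10) were at the floor, and they were also the 3 BCP-ALL lines at the floor for KLHL9. Jurkat, near the floor in every KLHL9 probe set, read 7.05 for FOCAD. The lineage difference of FOCAD was 1.5 (SE 0.531, adjusted p = 0.103), which did not pass the test.

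HACD4, an enzyme of very long chain fatty acid elongation, came next and split the lines another way. It was 7.29 in CCRF-CEM, 7.16 in Jurkat, 6.46 in P12-ICHIKAWA and 5.91 in TALL-1, and 7.35 in Nalm30 and 6.60 in Nalm16, while the other 7 lines were at 4.0 to 4.14. Those 7 included HPB-ALL, Molt4 and 697, the lines with the most MTAP in 231984_at. The interferon genes that lie between HACD4 and MTAP mostly gave 2 kinds of value, with IFNE between them at 4.70 to 5.66. The probe sets of IFNB1, IFNW1, IFNA5, IFNA2 and IFNA8 were near the floor in all 13 lines and that of IFNA1 in 12, with 5.06 in Nalm16. The 7 whose names end in _x_at (IFNA21, IFNA4, IFNA7, IFNA10, IFNA16, IFNA17 and IFNA14) lay between 5.4 and 7.74 in every line, Jurkat and Nalm6 included. The alpha interferon genes are nearly identical copies, so these probe sets cannot be assigned to 1 gene.

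Beyond the members, the antisense RNA CDKN2B-AS1 was near the floor in all 13 lines, and ELAVL2 did not exceed 5.04 in either of its probe sets. TUSC1, named as a tumor suppressor candidate, was 10.81 in HPB-ALL and 11.18 in 697 and between 4.0 and 4.52 in the other 11 lines. A range as large as its 7.17 was found in 0.38% of all probe sets. HPB-ALL and 697 were also the lines in which KLHL9, MTAP and CDKN2A were all above the limit in their most variable probe sets. In 697 this held for CDKN2A in 209644_x_at only. CAAP1 and PLAA, farther out, were above the limit in every line in their highest probe sets, at 8.04 to 9.43 (CAAP1 219276_x_at) and 6.46 to 8.21 (PLAA 209533_s_at). The other PLAA probe sets were lower in the Nalm16 and Nalm30 pair, with 235394_at at 4.29 in Nalm16 and 4.41 in Nalm30 and 209532_at at 4.15 in Nalm30. IFT74, a subunit of the transport machinery of cilia, was 4.27 in Jurkat, 4.42 in Nalm16 and 4.0 in Nalm30, and 5.13 to 6.19 in the other lines in 219174_at. Its second probe set, 61732_r_at, was near the floor in the same 3 lines and also in 697 (4.86), Nalm6 (4.60) and RS4,11 (4.77).

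**Figure D4:**
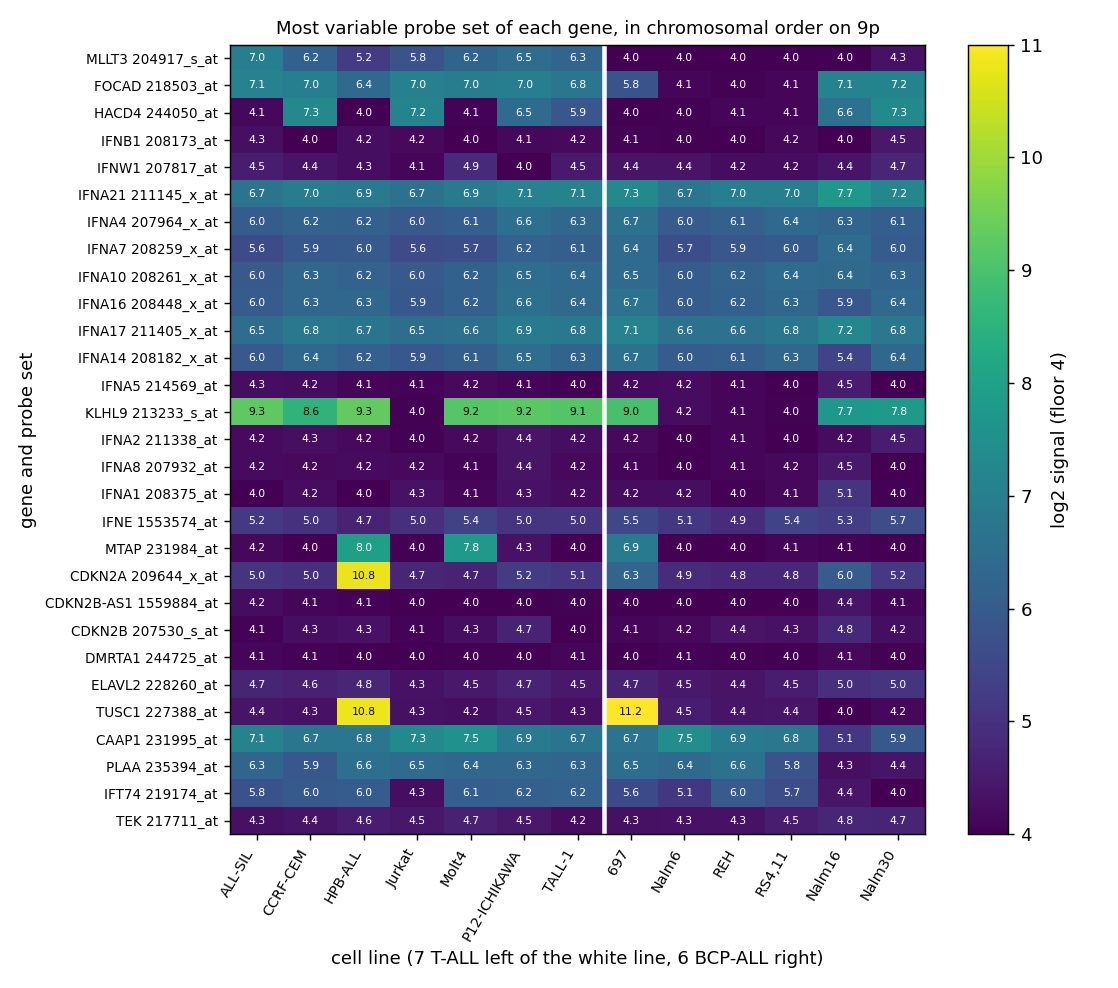
Log2 signal (color, with the value printed) of the most variable probe set of each measured gene from MLLT3 to TEK, in chromosomal order from top to bottom, in 7 T-ALL lines (left of the white line) and 6 BCP-ALL lines (right). Nalm6, REH and RS4,11 are at the floor for FOCAD and KLHL9, and Jurkat is at the floor for KLHL9 but not for FOCAD and HACD4.

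Read line by line, Jurkat had signal for FOCAD and HACD4, none above the limit for KLHL9, MTAP or CDKN2A in their most variable probe sets, and signal again for CAAP1. Nalm6, REH and RS4,11 had the same low values for KLHL9, MTAP and CDKN2A, with FOCAD and HACD4 near the floor as well, and CAAP1 at 8.68 to 9.43. CCRF-CEM had FOCAD, HACD4 and KLHL9 (7.01, 7.29 and 8.55) with MTAP 231984_at at 4.0 and CDKN2A 209644_x_at at 4.95. Probe sets with 1 to 4 lines near the floor and a range over 4 log2 units, the form seen in KLHL9 213233_s_at, made up 2.70% of all probe sets.

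The pathways in which the 5 genes act were described by lists of their partners and targets. Among 5 other CDK inhibitors tested, 1 was lower in T-ALL and 4 did not pass (3.67% of all genes were lower in T-ALL). That gene was CDKN1A, which encodes p21, an inhibitor of several CDKs and a target of p53. Its values had a lowest of 4.0, a median of 4.58 and a highest of 6.12 in T-ALL, against 8.13, 9.0 and 10.24 in BCP-ALL. Every BCP-ALL line was above every T-ALL line, and the lineages did not overlap in 3.69% of all genes tested. HPB-ALL, with the high CDKN2A signal, was the highest T-ALL line for CDKN1A. The mean was 4.75 ± 0.799 in T-ALL and 9.10 ± 0.715 in BCP-ALL (SD, n = 7 and 6), a difference of -4.35 (SE 0.396, adjusted p = 9.67e-06). The others were CDKN1B, CDKN1C, CDKN2D and CDKN3. CDKN2D, the p19 member of the INK4 family, read 6.41 to 7.90 in T-ALL and 4.43 to 7.83 in BCP-ALL, and its difference of 0.98 (SE 0.517, adjusted p = 0.248) did not pass.

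Of the targets of p16 and p15 and their pathway to RB, 10 of 11 genes were tested. E2F2, a transcription factor that RB holds in check, was lower in T-ALL, and 9 did not pass (3.67% of all genes were lower in T-ALL). The E2F2 mean was 8.49 ± 0.309 in T-ALL and 9.44 ± 0.392 in BCP-ALL (SD, n = 7 and 6), a difference of -0.95 (SE 0.202, adjusted p = 0.0112) in 228361_at. Its other probe sets leaned the same way, at -0.69 and -0.44, and did not pass (adjusted p = 0.282 and 0.506 over all probe sets). The lowest BCP-ALL line, 697 at 8.78, lay below the highest T-ALL line, CCRF-CEM at 8.89. The kinases that p16 and p15 block were measured in every line, with CDK4 at 10.26 to 11.17 in T-ALL and 10.63 to 11.32 in BCP-ALL, and CDK6 at 10.78 to 12.25 in T-ALL and 9.25 to 12.09 in BCP-ALL. CCND3, the D cyclin of the lymphoid lineage, had a mean of 10.94 in T-ALL and 11.67 in BCP-ALL, and its difference of -0.73 (SE 0.228, adjusted p = 0.0676) did not pass.

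RB1, the substrate of those kinases, was at 4.10 in ALL-SIL in probe set 203132_at, while the other T-ALL lines lay at 10.27 to 10.75 and the BCP-ALL lines at 7.99 to 10.14. The second RB1 probe set, 211540_s_at, did not show this, with 7.99 in ALL-SIL and 6.64 to 8.02 in the other T-ALL lines. In BCP-ALL it ran from 4.68 to 7.28, with Nalm16 (4.87) and Nalm30 (4.68) near the floor. ALL-SIL was thus a line in which probe sets of both RB1 and MTAP disagreed. RB1, CDK4 and CDK6 did not pass the test and are described because their values in single lines or their roles were of interest after the values were seen.

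**Figure D5:**
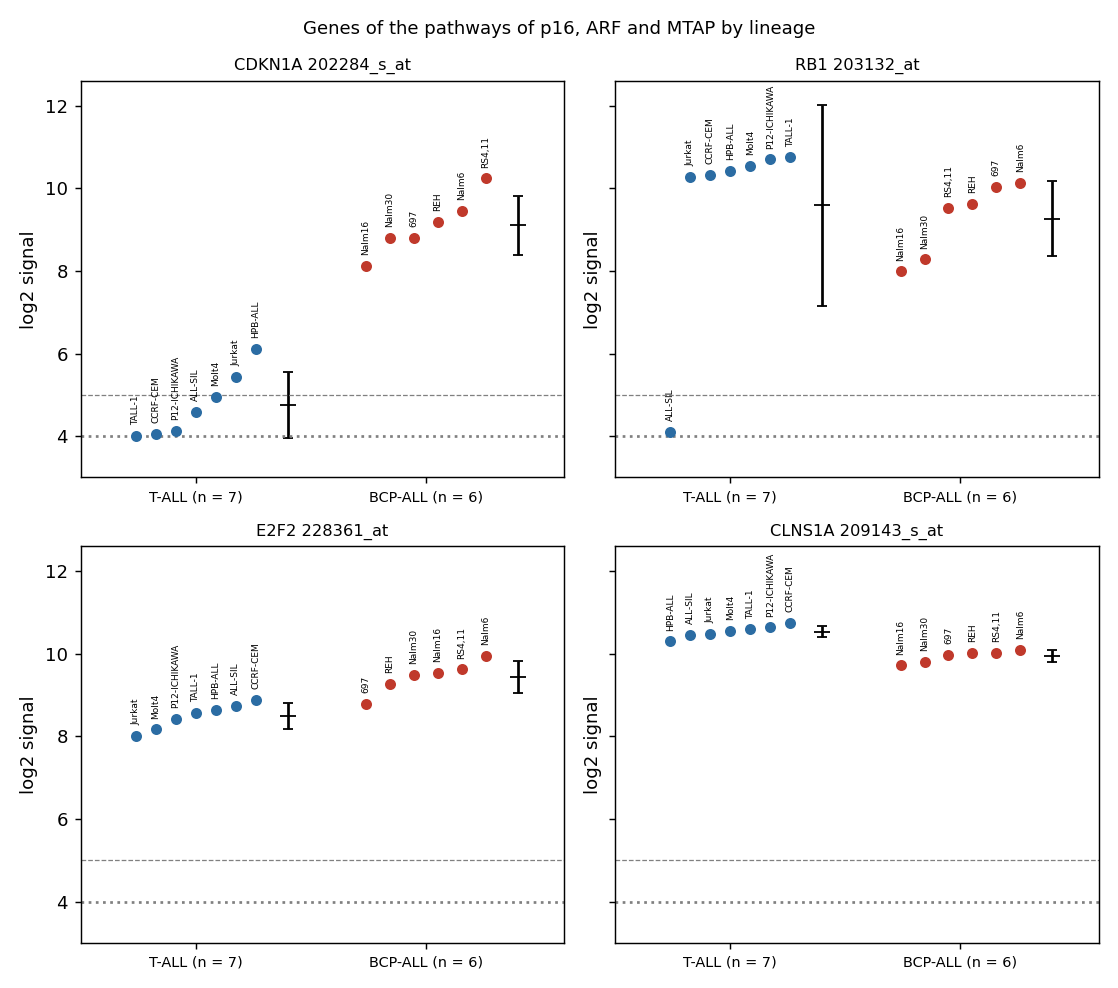
Log2 signal of CDKN1A, RB1, E2F2 and CLNS1A, each in the probe set with its highest mean, in T-ALL (left, n = 7) and BCP-ALL (right, n = 6), 1 labeled point per line, with the mean and SD as a bar, the floor of 4 dotted and the limit of 5 dashed. CDKN1A does not overlap between lineages, and RB1 is at 4.10 in ALL-SIL alone.

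In the list around ARF and p53, 8 of 10 genes were tested. CDKN1A, which also belongs to this list, was lower in T-ALL, and 7 did not pass (3.67% of all genes were lower in T-ALL). The median difference was -0.43 over the 8 beside 0.03 over all genes. GADD45A, a stress-response gene under p53, had a mean of 6.61 in T-ALL and 7.93 in BCP-ALL and a difference of -1.32 (SE 0.415, adjusted p = 0.0703). MDM2, the ligase that ARF inhibits, ranged from 8.53 to 9.30 in T-ALL and from 7.06 (Nalm16) to 10.69 (697) in BCP-ALL, and its difference of -0.36 (SE 0.504, adjusted p = 0.690) did not pass. It was named, as were GADD45A, CCND3 and CDKN2D, after its values were seen.

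Methionine salvage, polyamine synthesis and the arginine methyltransferase PRMT5, the enzymes around MTAP's substrate, were all measured. Of 15 genes tested, 1 was higher in T-ALL and 14 did not pass (3.96% of all genes were higher in T-ALL). The median difference was -0.02 beside 0.03 over all genes. The gene called was CLNS1A, which encodes pICln, a partner of PRMT5 that presents Sm proteins to it. Its mean was 10.54 ± 0.142 in T-ALL and 9.94 ± 0.145 in BCP-ALL (SD, n = 7 and 6), a difference of 0.60 (SE 0.124, adjusted p = 0.00943). CLNS1A did not overlap between lineages, as in 3.69% of genes tested. Its second probe set, 242492_at, gave 0.52 (SE 0.406, adjusted p = 0.529 over all probe sets). PRMT5 itself ran from 9.31 to 10.55 in T-ALL and from 9.50 to 11.04 in BCP-ALL, a difference of -0.62 (SE 0.279, adjusted p = 0.186). MAT2A, which makes the methyl donor S-adenosylmethionine, read 10.17 to 11.02 in T-ALL and 9.46 to 11.08 in BCP-ALL. In HPB-ALL, Molt4 and 697, where MTAP was high in 231984_at, PRMT5 read 9.53, 10.17 and 9.50 and MAT2A 10.68, 10.82 and 10.31, values inside the range of the other 10 lines. PRMT5 and MAT2A were also chosen for their roles after the values were seen.

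Regulators of the INK4/ARF locus, mainly Polycomb proteins that keep it silent and ETS factors that activate it, gave no call among 9 genes tested, and 3 of the 12 listed were not analysed here. Their median difference was 0.51 beside 0.03 over all genes, of which 7.63% were called. ETS1, an activator of the p16 promoter, was 9.76 to 11.11 in T-ALL and 4.19 to 9.63 in BCP-ALL, where Nalm16 (4.32) and Nalm30 (4.19) were near the floor. Its difference of 2.99 (SE 0.883, adjusted p = 0.0563) fell short of the threshold, and ETS1 is named after its values were seen. EZH2, the Polycomb methyltransferase, ran from 9.39 to 10.23 in T-ALL and from 7.54 to 10.08 in BCP-ALL. In HPB-ALL, the line with the high CDKN2A value, EZH2 was 9.89. EZH2 and the KLHL9 partners were likewise named for their roles after the values were seen.

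The partners of KLHL9 in the Aurora B ligase were expressed in all lines with the exception of KLHL13. CUL3 (8.68 to 10.16), RBX1 (10.15 to 10.87) and AURKB (9.18 to 10.06) were high throughout. None of the 4 genes tested passed, against 7.63% of all genes. KLHL13, the adaptor that pairs with KLHL9, was 7.16 in Molt4, 6.55 in HPB-ALL and 5.84 in REH, and 4.02 to 4.75 in the other 10 lines. REH therefore had KLHL13 above the limit with KLHL9 at the floor.

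The genes whose pattern was most like that of a member were found by Pearson's r over the 13 lines among 12557 genes. For CDKN2A 209644_x_at they were GADD45G (0.974), PLEK (0.974), SNX7 (0.972), DLX2 (0.970) and MYL11 (0.967). All 5 were highest in HPB-ALL, where SNX7 read 10.22 against 4.72 to 5.61 in the other lines and MYL11 15.85 against 7.18 to 8.35, so the likeness rests on that line. For MTAP 211364_at they were ATRN (0.898), ASAH1 (0.882), PRNP (0.853), KDM7A-DT (0.845) and ABCC4 (0.839), all lowest in ALL-SIL.

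Because 211364_at varied so little, the search was repeated with 231984_at and for KLHL9, both chosen after the values were seen. The genes most like MTAP were then ENOX1 (0.901), TNFRSF18 (0.843), GAL3ST4 (0.833), DCHS1 (0.828) and CNN3 (0.826). CNN3, a calponin, read 9.38 in HPB-ALL, 8.61 in Molt4 and 7.82 in 697, but also 7.17 in Nalm16 and 7.21 in Nalm30, where MTAP was near the floor. For KLHL9 213233_s_at they were CNKSR2 (0.878), NINL (0.837), CASTOR3P (0.825), NR2F1-AS1 (0.816) and LILRA1 (0.806). CNKSR2, a scaffold of RAS signaling, was at 4.0 to 4.01 in Jurkat, Nalm6, REH and RS4,11, the same lines in which KLHL9 was at the floor, and at 4.89 to 6.40 in the others.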

How the data were processed

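Gene expression was measured on HG-U133 Plus 2.0 arrays in 13 lines. The deposited values are log2 signals that the authors obtained by iterPLIER+16 with Affymetrix Expression Console, of a version that the sources used here do not give. The labels and the study's methods name different RNA extraction kits and culture times before extraction, and neither gives the scaling between arrays. Of 42450 probe sets in the table, 39867 were in the platform annotation, where 38125 carried 1 gene symbol and 1742 several, and 2583 had no symbol here.

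T-ALL and BCP-ALL were compared with limma 3.58.1 (lmFit and eBayes, R 4.3.3) with Benjamini-Hochberg adjustment at 0.05. The gene-level fit used, for each gene, its probe set of highest mean and kept 12560 genes above the array median in at least 3 lines. The probe-level fit used all 38125 with no filter. The fits were tested on simulated data. The p-value of a single probe set came from an exact permutation test over lines (Python 3.11.15, scipy 1.17.1). Alternatives were other normalizations, filters and probe set rules, other limits for the floor, leaving out each line, the pair P12-ICHIKAWA and TALL-1 as 1 line, and leaving out Nalm16 and Nalm30.

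Named were all member probe sets, all measured 9p neighbors, the list genes that passed the gene-level fit (up to 4 a list) and the 5 genes most like MTAP and CDKN2A by Pearson's r. The neighbors, and the lists of CDK inhibitors, p16 and p15 targets, ARF and p53, methionine salvage, INK4/ARF regulators and KLHL9 partners, are summarized with the members. The myeloid, erythroid and fibroblast marker lists had line means of 5.11 to 5.40, 5.04 to 5.48 and 5.03 to 5.81 in T-ALL, and 5.32 to 6.68, 5.07 to 5.58 and 5.29 to 6.13 in BCP-ALL. Within the myeloid list, MPO was 12.11 in REH and LYZ was 11.2 in Nalm6. The members and lists were chosen with earlier results of these data known. IC50 values of methotrexate were not used here, and signal on 1 array per line limits the precision.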

Additional observations from a re-analysis of the deposited data

Results flagged for a closer look

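In 17 of 66 groups of lines examined, 1 line lay far from the rest of its lineage by Dixon's criterion. For normally distributed values the criterion flags about 1 in 20 groups, or 3.3. Many values here lie at the floor of 4, and the share flagged over all probe sets is not given. The groups are not independent, since probe sets of 1 gene repeat each other. Jurkat stood below the other T-ALL lines for KLHL9, at 4.04 in 213233_s_at and 4.01 in 213117_at. In BCP-ALL, 697 stood above the other lines for MTAP, at 6.9 in 231984_at, 6.57 in 204956_at, 5.71 in 216685_s_at and 5.62 in 211363_s_at. HPB-ALL stood above the other T-ALL lines for CDKN2A, at 10.8 in 209644_x_at and 8.84 in 207039_at. ALL-SIL lay below the other T-ALL lines for MTAP 211364_at, at 4.31.

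For TUSC1, 10.81 in HPB-ALL stood apart in T-ALL and 11.18 in 697 in BCP-ALL. RB1 203132_at was at 4.1 in ALL-SIL, and KLHL13 was at 5.84 in REH. MLLT3 1569652_at was at 5.44 in ALL-SIL. Apart but near the floor were CDKN2A 211156_at at 4.71, MLLT3 204917_s_at at 4.34 and MLLT3 1569652_at at 4.31, all in Nalm30.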

How the results depend on the processing

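Across the alternatives run, no member gene or probe set became a call by the adjusted p of limma. KLHL9 213117_at passed only by the exact permutation test of a single probe set (difference 2.18, p = 0.0350, unadjusted). Some small differences changed sign. Without Nalm16 and Nalm30, KLHL9 237123_x_at was -0.0179, and with quantile normalization DMRTA1 was -0.00993. Leaving out 1 line at a time, MTAP 211364_at ranged from -0.0881 to 0.10 (positive without ALL-SIL or 697), MTAP 204956_at from -0.0683 to 0.65 (negative without HPB-ALL or Molt4), CDKN2A 209644_x_at from -0.36 to 0.67 and 207039_at from -0.10 to 0.67 (negative without HPB-ALL), and CDKN2A 211156_at from -0.0034 to 0.16 (negative without TALL-1). CDKN1A, MLLT3, CLNS1A and E2F2 kept their calls and directions under all alternatives that used the same probe set. The rule of largest SD takes another probe set for MLLT3, CLNS1A and E2F2, so that alternative was not compared for these genes. In limma over all probe sets, CLNS1A 242492_at and E2F2 235582_at did not pass (adjusted p = 0.529 and 0.282). MLLT3 204917_s_at did (adjusted p = 0.000104). With P12-ICHIKAWA and TALL-1 as 1 line, 610 genes and 887 probe sets were called, against 958 and 1396 with all lines, and leaving out 1 line gave 609 to 1223 genes (629 without P12-ICHIKAWA, 609 without TALL-1) and 876 to 1752 probe sets (900 and 876 without the same lines). The number of lines near the floor in all CDKN2A probe sets was 0 at a limit of 0.5 log2 units, 10 at 1.5 and 10 at 2, against 6 at 1. Pearson's r of MTAP with KLHL9 was 0.512 with that pair as 1 line, 0.412 with lineage means removed and 0.315 without HPB-ALL and Molt4, and Spearman's coefficient was 0.621. Spearman's coefficient was 0.319 for MTAP with CDKN2A and 0.516 for CDKN2A with KLHL9. Between 42.2% and 48.6% of the values of an array lay near the floor, where differences in RNA are understated. The cause of these changes was not tested. No paired analysis was possible because each line belongs to 1 lineage and was hybridized to 1 array.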
